A study of Mus musculus with 8 samples.

Results

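The 10 Toll-like receptor genes described here, Tlr1, Tlr2, Tlr3, Tlr4, Tlr5, Tlr6, Tlr7, Tlr8, Tlr9 and Tlr13, were taken by symbol from the 34199 genes of a bulk RNA-seq experiment. The experiment asked how mouse myeloid progenitors change when the histone chaperone CAF-1 is depleted, beside their differentiation after HOXA9 is switched off. The cells were Lys-GFP-ER-HoxA9 cells of C57Bl/6 origin: bone marrow cells held at the granulocyte-macrophage progenitor stage (iGMPs) by HOXA9 fused to a mutant estrogen receptor, with GFP under the lysozyme promoter as a differentiation reporter. All were grown with stem cell factor, and there were 4 groups of 2 libraries. Uninduced cells were in 150 ng/ml estradiol at 0 h. CAF-1 OFF cells received 500 µM IPTG for 48 h in estradiol, which switches on an shRNA against Chaf1b, a CAF-1 subunit. IPTG-treated control cells received IPTG for 48 h in 150 ng/ml estradiol, by the growth protocol common to the line. Their labels give neither vector nor IPTG dose; the methods of the study name a stuffer vector as the control for IPTG induction. For HOXA9 OFF, estradiol was washed out and the cells grew 48 h without it. The study examined RNA-seq from 2 independent sub-clones, for the groups other than the IPTG-treated control. The labels tie no library to a sub-clone, so p-values measure the spread between these libraries, whatever its source.

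Toll-like receptors are membrane proteins of innate immune cells that recognise microbial molecules through leucine-rich repeats and signal through a cytoplasmic TIR domain. Some sit at the cell surface and bind bacterial lipids, lipoproteins or flagellin, and others are carried by the chaperone UNC93B1 to endosomes, where they are cut by proteases and bind nucleic acids. Signals pass through the adaptors MyD88 and TRIF (Ticam1) to NF-kB and interferon regulatory factors, and neutrophils, monocytes and macrophages acquire most of these receptors as they mature.

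Library totals ran from 14044284 to 22423837 gene counts. Levels are given in CPM, counts scaled to library size with edgeR's TMM factors. A gene was called when its Benjamini-Hochberg adjusted p in edgeR's quasi-likelihood test, fitted to all 8 libraries and 13080 genes, was below 0.05 and it changed 1.5-fold or more. In CAF-1 OFF the target of the shRNA, Chaf1b, had 18.7 and 9.72 CPM, against 96.8 and 100.3 CPM in uninduced cells. The IPTG-treated control libraries kept 95.1 and 101.7 CPM. HOXA9 OFF libraries had 48.3 and 41.0 CPM of it. Estradiol acts on the HOXA9 protein, so Hoxa9 transcripts do not check the HOXA9 OFF label. These transcripts were at 481.2 and 449.7 CPM in HOXA9 OFF, above the 234.4 and 234.8 CPM of uninduced cells. The 6 progenitor markers summed to 10316 to 15609 CPM in every library outside HOXA9 OFF, where they summed to 7551 and 5563 CPM. Cd34, Kit, Ctsg and Mpo were lower in HOXA9 OFF than in uninduced cells. Prtn3 (mean 1616 against 1197 CPM) and Elane (585 against 361 CPM) were higher, with overlap. In CAF-1 OFF Elane was called 3.05-fold higher than in uninduced cells (edgeR adjusted p = 0.0334). In bulk RNA, fewer cells of a type and less RNA per cell cannot be told apart.

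Every member had a row in the files, and 8 of the 10 had enough counts to be tested. Tlr3 and Tlr5 did not pass the filter on low counts. Tlr1, Tlr7 and Tlr8 passed it only through the HOXA9 OFF libraries: without them 5 members passed, and of these Tlr13 did not pass on the control libraries alone. Members that were tested because they were high in 1 group had to differ from the others, so counts over the 8 are given as a description. In the mm9 annotation no exon of a member overlapped another gene. Tlr1 (chromosome 5, 65316050 to 65324000) and Tlr6 (chromosome 5, 65344345 to 65351287) lie close together on the minus strand and share sequence. Of the 50-base windows of their transcripts, 82.6% for Tlr1 and 82.2% for Tlr6 occurred in no other gene, so part of their reads could be lost or split, and their counts are less certain than the rest. Tlr7 (X, 163742861 to 163768490) and Tlr8 (X, 163680626 to 163702261), sensors of single-stranded RNA, are also near one another on the minus strand. Tlr13, a sensor of bacterial ribosomal RNA, lies apart on X at 103338543 to 103355832.

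The 250 bases before the RefSeq start of Tlr2, Tlr8, Tlr9 and Tlr13 are shown because Tlr2 and the endosomal receptors that passed the test set HOXA9 OFF apart from the other groups. They come from the RefSeq promoter table (build GRCm38.p6), which holds 8 of the 10 members, all but Tlr4 and Tlr7. Each sequence was found at 1 place in mm9: Tlr2 at chr3:83645531-83645780 on the minus strand, Tlr8 at chrX:163702262-163702511 on the minus strand, Tlr9 at chr9:106124679-106124928 and Tlr13 at chrX:103338364-103338613 on the plus strand. Capitals mark letters that match a searched motif.
Tlr2: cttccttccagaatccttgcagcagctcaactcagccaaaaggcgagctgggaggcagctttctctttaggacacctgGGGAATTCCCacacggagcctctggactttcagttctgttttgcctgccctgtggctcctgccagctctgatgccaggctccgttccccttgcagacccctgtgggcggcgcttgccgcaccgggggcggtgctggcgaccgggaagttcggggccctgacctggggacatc
Tlr8: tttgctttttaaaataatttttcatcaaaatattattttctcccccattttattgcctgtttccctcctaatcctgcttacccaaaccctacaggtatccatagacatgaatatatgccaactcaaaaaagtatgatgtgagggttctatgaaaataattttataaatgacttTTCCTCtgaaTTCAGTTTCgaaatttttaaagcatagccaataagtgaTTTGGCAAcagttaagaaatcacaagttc
Tlr9: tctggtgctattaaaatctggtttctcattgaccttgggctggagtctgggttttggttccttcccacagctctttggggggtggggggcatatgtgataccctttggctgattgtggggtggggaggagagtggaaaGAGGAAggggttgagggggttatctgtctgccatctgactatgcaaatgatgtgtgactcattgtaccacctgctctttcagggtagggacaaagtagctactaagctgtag
Tlr13: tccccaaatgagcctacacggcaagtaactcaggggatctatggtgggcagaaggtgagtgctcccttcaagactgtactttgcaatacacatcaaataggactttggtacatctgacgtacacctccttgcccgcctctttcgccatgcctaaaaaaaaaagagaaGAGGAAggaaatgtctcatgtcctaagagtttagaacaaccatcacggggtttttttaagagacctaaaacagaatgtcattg

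Motifs were searched on both strands. The PU.1-type letters GAGGAA were 112 to 107 bases before the start in Tlr9, 83 to 78 bases before it in Tlr13 and, on the other strand, 77 to 72 bases before it in Tlr8. These letters occur in 23.3% of 32851 promoters of this length. Tlr8 also held the C/EBP-type TTGCNNAA 29 to 22 bases before the start and the interferon-response-type GAAANNGAA 67 to 59 bases before it, which are in 9.56% and 7.13% of promoters. Tlr2 held the NF-kB-type GGGANTTCC, read on both strands over the same palindrome 172 to 163 bases before the start, and 2.46% of promoters hold this motif or its variant GGANTTTCC. The ELF1-type CGGAAG, in 13.6% of promoters, was in 1 of the Tlr1 windows and in none of those shown. Windows not shown held the other motifs too: Tlr3, which stayed near 0 in every group, held the variant GGANTTTCC 210 to 202 bases and a C/EBP-type match 95 to 88 bases before its start. Tlr6 held a C/EBP-type and 2 overlapping interferon-response-type matches, another Tlr1 window held GAGGAA, and Tlr5 held none of the motifs. These are matches of letters, not tested binding sites.

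In uninduced iGMPs the receptors were nearly all Tlr4, the lipopolysaccharide receptor. Per kilobase of transcript, where levels of different genes can be compared, Tlr4 was at 17.9 ± 3.30 CPM per kb (SD, n = 2), 82.3% of the summed level of the 10 receptors. Tlr2, which recognises lipoproteins, was at 2.34 ± 0.907 and its partner Tlr6 at 1.09 ± 0.218 CPM per kb. Tlr9, the receptor for unmethylated CpG DNA, was at 0.221 ± 0.0506 CPM per kb. The others were at 0.0416 CPM per kb or less, and neighbours in their order did not differ beyond their spread. Tlr3, the sensor of double-stranded RNA, and Tlr8 had 0 counts in both libraries, where 3 counts would have been 0.128 to 0.134 CPM.

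**Figure D1:**
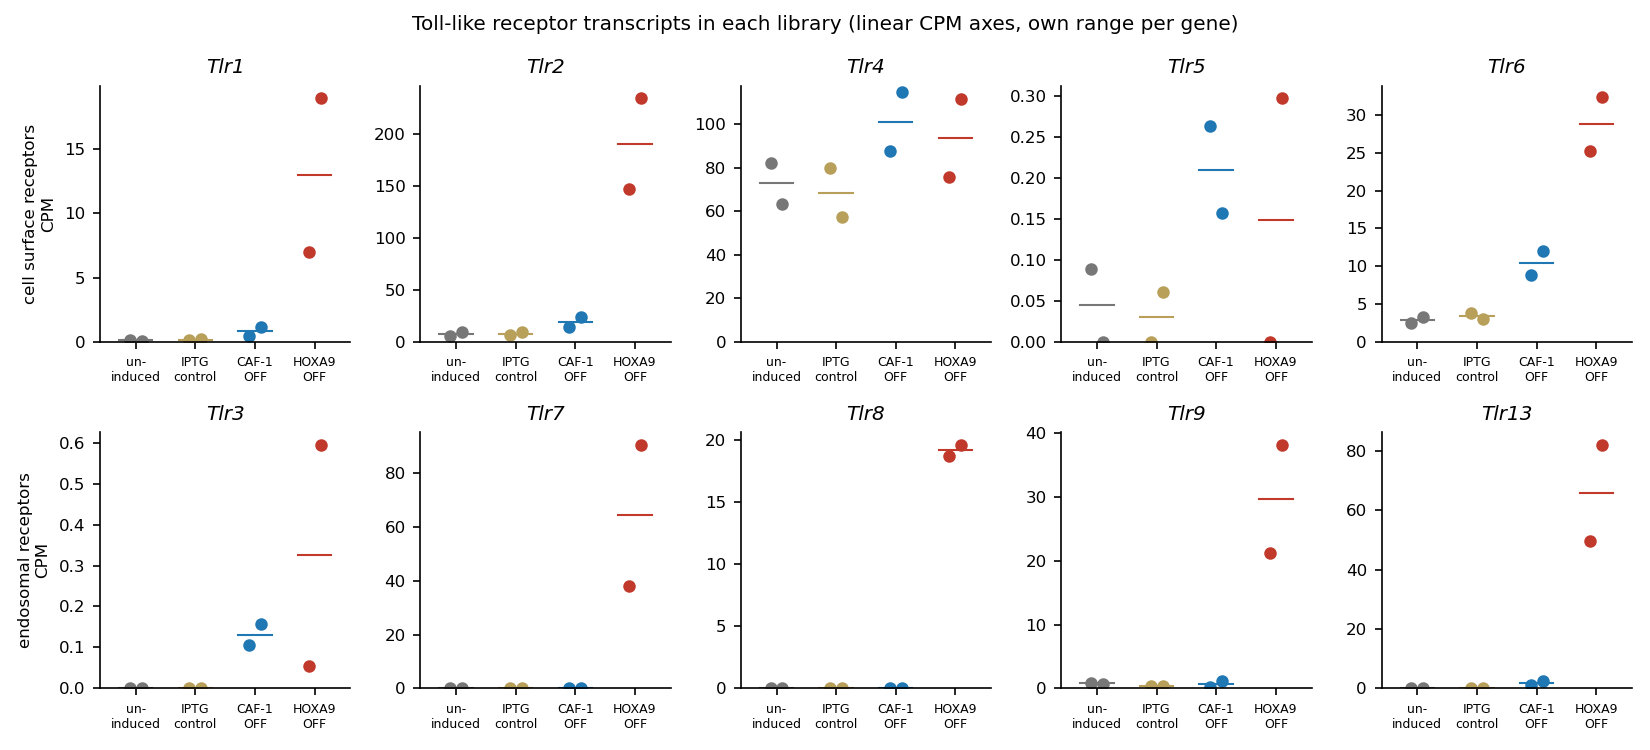
CPM of each Toll-like receptor in each library, with cell surface receptors in the upper row and endosomal receptors in the lower row. Points are libraries (replicate 1 left, replicate 2 right), horizontal lines are group means of 2 libraries, and each linear axis starts at 0 with its own range. Tlr8 is above 0 only in the HOXA9 OFF libraries, at 18.7 and 19.6 CPM, whereas the groups of Tlr4 lie between 57.2 and 114.6 CPM.

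The IPTG-treated control addressed what IPTG and 48 h of culture do without CAF-1 depletion. No member was called against uninduced cells, nor was any of the 13080 genes: the shares called were 0% higher and 0% lower by edgeR's quasi-likelihood test. DESeq2 called 5 genes, no member among them. In the quasi-likelihood test 100 genes had an unadjusted p under 0.05, well below the share of 0.05 that unchanged genes would give. The test was thus cautious for this pair, and the lack of calls does not exclude small effects. Tlr4 was at 79.8 and 57.2 CPM in the control and 82.3 and 63.3 CPM in uninduced cells. Tlr9 was at 0.424 and 0.307 CPM, below the 0.890 and 0.642 CPM of uninduced cells without overlap, from 11 and 35 counts per group, and its adjusted p was 1.

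CAF-1 OFF cells had more transcripts of the lipoprotein receptors Tlr2 and Tlr6 and a low level of Tlr13 that uninduced cells lacked. Against uninduced cells 3 of the 8 tested members were higher and 0 lower, where 10.5% of all tested genes were higher and 3.5% lower. The median log2 change of all tested genes was 0.01. Tlr2 reached 14.4 and 24.1 CPM in CAF-1 OFF, against 5.12 and 8.98 CPM in uninduced cells. The groups did not overlap, and the change was 2.72-fold (log2 1.45, SE 0.37, edgeR adjusted p = 0.0313). Tlr6, which pairs with TLR2 for diacylated lipopeptides, was at 8.90 and 12.0 CPM against 2.45 and 3.25 CPM, a 3.65-fold rise (log2 1.87, SE 0.26, edgeR adjusted p = 0.00612). Tlr1, which pairs with TLR2 for triacylated lipopeptides, was at 0.474 and 1.15 CPM against 0.178 and 0.0428 CPM, from 31 counts against 5. It was higher in both libraries but was not called (log2 2.82, SE 0.86, edgeR adjusted p = 0.0538). Tlr4 was at 87.4 and 114.6 CPM, above the 82.3 and 63.3 CPM of uninduced cells, and was not called either (log2 0.47, SE 0.25, edgeR adjusted p = 0.212). Tlr5, the flagellin receptor, had 5 and 3 counts against 2 and 0, and was not tested.

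Of the endosomal receptors among the members, Tlr13 alone passed the test in CAF-1 OFF. It had 22 and 50 counts, or 1.16 and 2.61 CPM, against 0 and 1 counts in uninduced cells, a ratio of 86.6 with a 95% interval of 15.1 to 3466 that covers counting error only (edgeR adjusted p = 0.00612). The RNA sensors Tlr7 and Tlr8 stayed at or near 0, with 0 and 1 counts for Tlr7 and none for Tlr8. Tlr9 was at 0.263 and 1.10 CPM against 0.890 and 0.642 CPM, and the groups overlapped (log2 -0.17, SE 0.61, edgeR adjusted p = 0.872). Tlr3 had 2 and 3 counts, against none in either control group.

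These calls were lost with certain single libraries left out. Leaving out a library leaves 1 in its group, so the spread then comes from the other groups. Without uninduced replicate 1, none of the 3 receptors was called (edgeR adjusted p = 0.169 for Tlr2 and 0.0588 for both Tlr6 and Tlr13), and the calls over all genes in that comparison went from 1836 to 157. Tlr2 also lost its call without uninduced replicate 2, CAF-1 OFF replicate 2, or IPTG-treated control replicate 1 or 2 (edgeR adjusted p = 0.0542, 0.206, 0.0505 and 0.0509). The fitted log2 change of Tlr13, 6.06 with all libraries, was 5.25 without uninduced replicate 1, 8.13 without uninduced replicate 2 and 5.36 without CAF-1 OFF replicate 2. That of Tlr6, 1.87 with all libraries, was 1.68 without uninduced replicate 1. That of Tlr2, 1.45 with all libraries, was 1.09 and 1.90 without uninduced replicate 1 and 2. It was 1.02 without CAF-1 OFF replicate 2, and 1.42 and 1.44 without IPTG-treated control replicate 1 and 2.

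Against the IPTG-treated control, which shares the agent and the time, 2 of 8 members were higher in CAF-1 OFF and 0 lower, where 9.56% of all tested genes were higher and 3.2% lower. Tlr6 rose 3.03-fold from 3.82 and 3.07 CPM (log2 1.60, SE 0.26, edgeR adjusted p = 0.011). Tlr13 had 2 counts in each control library, giving a ratio of 14.4 with a 95% counting interval of 5.38 to 54.2 (edgeR adjusted p = 0.0145). Tlr2 was 2.42-fold higher without overlap, from 6.92 and 8.96 CPM, and just missed the threshold (edgeR adjusted p = 0.0518). Neither call held without CAF-1 OFF replicate 2 or without IPTG-treated control replicate 1 or 2, fits that leave 1 library in a compared group. The log2 change of Tlr6 was then 1.37, 1.74 and 1.45, against 1.60 with all libraries. That of Tlr13 was 3.08, 3.85 and 3.68, against 3.78 with all libraries.

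In HOXA9 OFF cells the surface receptors Tlr1, Tlr2 and Tlr6 and the endosomal receptors Tlr7, Tlr8, Tlr9 and Tlr13 were higher, and receptors that uninduced cells barely transcribed became readily detected. Against uninduced cells 7 of 8 tested members were higher and 0 lower, where 25.2% of all tested genes were higher and 22.1% lower. Of the 7, Tlr1, Tlr7 and Tlr8 were tested only because of their HOXA9 OFF counts, and the other 4 were Tlr2, Tlr6, Tlr9 and Tlr13. The CAF-1 OFF and HOXA9 OFF comparisons use the same uninduced libraries and are not independent.

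**Figure D2:**
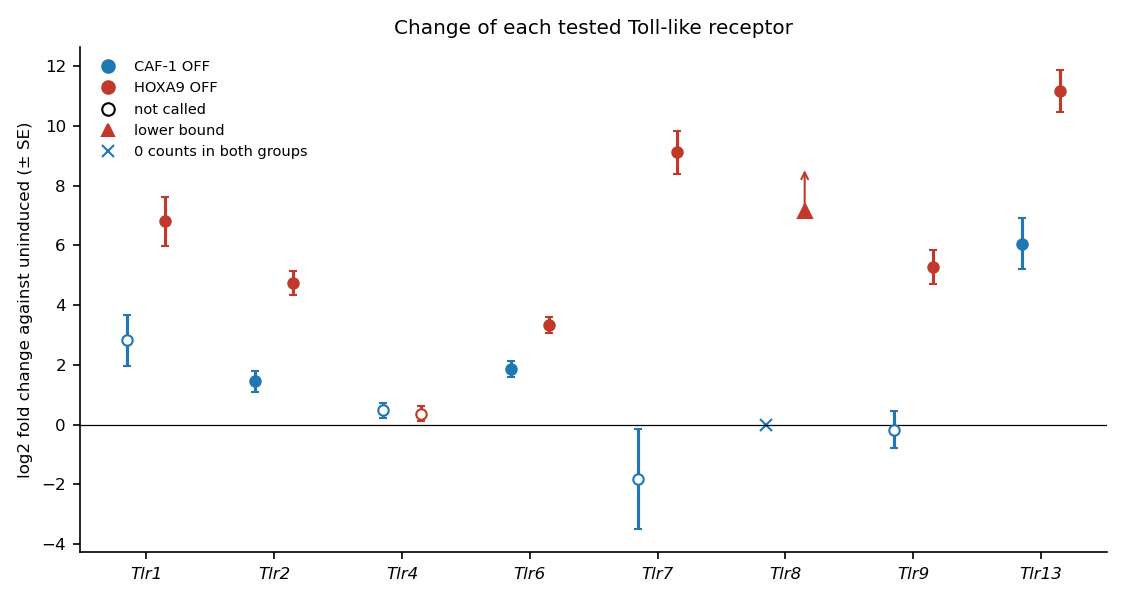
Log2 fold change against uninduced cells (vertical axis) of the 8 tested Toll-like receptors in CAF-1 OFF (blue) and HOXA9 OFF (red), with bars of 1 SE from edgeR's fit. Open points were not called, the triangle with an arrow is the lower bound for Tlr8 in HOXA9 OFF, and the cross marks Tlr8 at 0 counts in both groups; Tlr4, at 0.47 and 0.36, has the smallest HOXA9 OFF change.

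Among the surface receptors, Tlr2 was at 146.5 and 234.3 CPM in HOXA9 OFF. This was 26.9-fold the uninduced level (log2 4.75, SE 0.40, edgeR adjusted p = 5.25e-05). Tlr6 was at 25.2 and 32.3 CPM, 10.1-fold higher (log2 3.33, SE 0.27, edgeR adjusted p = 4.73e-05). Tlr1, the other partner of TLR2, was at 6.95 and 18.9 CPM, against 5 counts in the uninduced libraries together (log2 6.81, SE 0.81, edgeR adjusted p = 0.000261). It was tested only because of its HOXA9 OFF counts, so its p-value is given as a description. Tlr4 was at 75.5 and 111.7 CPM, its range overlapped that of uninduced cells, and it was not called (log2 0.36, SE 0.25, edgeR adjusted p = 0.245). Tlr5 had 0 and 6 counts and was not tested.

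Of the endosomal receptors called in HOXA9 OFF, Tlr9 alone had enough counts in the control libraries to pass the filter on them. Tlr7 was at 38.0 and 90.6 CPM, from 700 and 1827 counts against 4 and 1 in uninduced cells (log2 9.12, SE 0.71, edgeR adjusted p = 4e-05). Its neighbour Tlr8 was at 18.7 and 19.6 CPM, from 344 and 395 counts, and had no count in any other library, so it was at least 143-fold higher than 3 counts in an uninduced library would be (edgeR adjusted p = 0.000113). Tlr8 was the endosomal receptor on which the HOXA9 OFF libraries differed least, whereas Tlr7 differed 2.39-fold between them. Tlr9 was at 21.2 and 38.2 CPM against 0.890 and 0.642 CPM (log2 5.27, SE 0.57, edgeR adjusted p = 0.000174). Tlr13 was at 49.5 and 82.1 CPM, a ratio of 3049 to the lone uninduced count with a 95% counting interval of 547 to 120488 (edgeR adjusted p = 1.95e-05). Tlr3 had 1 and 12 counts against none. The first of these is under the floor of 3 counts, so no fold is given, and Tlr3 was not tested.

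No call in HOXA9 OFF was lost when any 1 library was left out. The sizes of the rarest receptors moved. Without uninduced replicate 1, the log2 change was 8.03 for Tlr1, 10.34 for Tlr7 and 10.37 for Tlr13, and without uninduced replicate 2 it was 6.13, 8.44 and 13.25. Without HOXA9 OFF replicate 2, the log2 change was 5.91 for Tlr1 and 8.36 for Tlr7.

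The direct comparison of the perturbed groups placed CAF-1 OFF below HOXA9 OFF for 7 of 8 tested members, with 0 higher, where 21.4% of all tested genes were lower and 22.2% higher. The 7 again include Tlr1, Tlr7 and Tlr8. Tlr6 differed least of the 7 (log2 -1.46, SE 0.25, edgeR adjusted p = 0.00193). For Tlr2 the log2 difference was -3.31 (SE 0.37, edgeR adjusted p = 0.000264). Tlr13, called against uninduced cells in both groups, was at -5.12 (SE 0.44, edgeR adjusted p = 9.54e-05). Thus each of the 3 receptors called in CAF-1 OFF stayed below its HOXA9 OFF level. Tlr9 was at -5.43 (SE 0.59, edgeR adjusted p = 0.000238) and Tlr1 at -3.98 (SE 0.65, edgeR adjusted p = 0.00165). For Tlr7 the ratio of CAF-1 OFF to HOXA9 OFF was 0.000401, with a 95% counting interval of 1.01e-05 to 0.00223, from 1 count in CAF-1 OFF. Tlr8 was at least 121-fold lower in CAF-1 OFF. Tlr4 did not differ beyond its error (log2 0.11, SE 0.25, edgeR adjusted p = 0.735). The 7 calls held with any 1 library left out. The log2 difference of Tlr7, -10.94 with all libraries, was -10.09 without CAF-1 OFF replicate 1, -13.26 without CAF-1 OFF replicate 2 and -10.19 without HOXA9 OFF replicate 2. That of Tlr9 was -4.75 and -6.78 without CAF-1 OFF replicate 1 and 2. That of Tlr1 was -4.75 and that of Tlr13 -5.82 without CAF-1 OFF replicate 2, and Tlr1 was at -3.09 without HOXA9 OFF replicate 2.

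The make-up of the 10 members differed most between HOXA9 OFF and the rest. Summed per kilobase, the 5 surface receptors were at 21.3 ± 2.23 CPM per kb (SD, n = 2) in uninduced cells and 20.8 ± 3.63 in the IPTG-treated control. They were at 35.5 ± 7.99 CPM per kb in CAF-1 OFF and 102.1 ± 32.1 in HOXA9 OFF. The 5 endosomal receptors were at 0.254 ± 0.0677, 0.147 ± 0.0399, 0.698 ± 0.441 and 46.9 ± 19.0 CPM per kb in the same order. The surface share of the summed level was thus 98.8 ± 0.189% in uninduced cells, 99.3 ± 0.0689% in the control and 98.2 ± 0.792% in CAF-1 OFF, against 70.3% and 67.4% in the HOXA9 OFF libraries. These sums are given as a description, with no test.

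**Figure D3:**
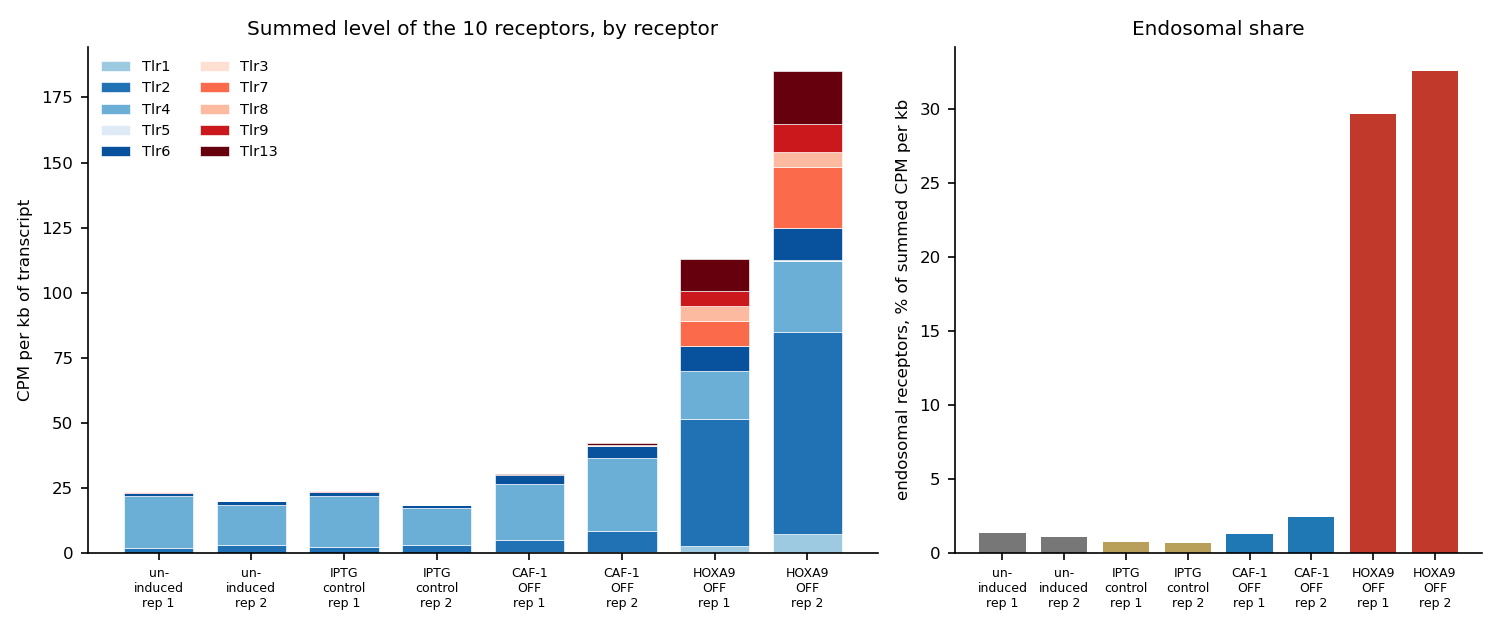
Left, summed level of the 10 Toll-like receptors in CPM per kb of transcript for each library, stacked by receptor (blues, surface receptors; reds, endosomal receptors). Right, endosomal receptors as a percentage of that sum, with bars starting at 0; the HOXA9 OFF libraries stand near 30% and the other 6 libraries below 3%.

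The order of levels per kilobase was Tlr4, Tlr2, Tlr6 at the top in uninduced, IPTG-treated control and CAF-1 OFF cells. In CAF-1 OFF, Tlr4 was at 24.8 ± 4.72, Tlr2 at 6.38 ± 2.28 and Tlr6 at 4.01 ± 0.835 CPM per kb (SD, n = 2). Both Tlr2 values there were above both Tlr6 values, the lower of them, 4.77 CPM per kb, by little over the higher Tlr6 value of 4.60. Tlr13 followed at 0.465 ± 0.254 CPM per kb, and Tlr1 and Tlr9, at 0.306 ± 0.180 and 0.196 ± 0.170, did not differ from it beyond their spread.

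In HOXA9 OFF, Tlr2 came first at 63.2 ± 20.6 CPM per kb, above all others in both libraries, and Tlr4 second at 23.0 ± 6.28. Tlr7 at 16.5 ± 9.55, Tlr13 at 16.2 ± 5.68, Tlr6 at 11.1 ± 1.93 and Tlr9 at 8.56 ± 3.47 CPM per kb followed. From Tlr4 to Tlr9, neighbours in this order overlapped. Tlr8 at 5.58 ± 0.190 and Tlr1 at 4.88 ± 3.20 CPM per kb came next and overlapped as well, and Tlr3 and Tlr5 remained under 0.1 CPM per kb. Tlr4 itself made up 15.6% of the summed level, although its CPM was close to that of the other groups.

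The HOXA9 OFF libraries were not alike. Replicate 2 was above replicate 1 for all 8 tested receptors, by 1.05-fold for Tlr8 to 2.73-fold for Tlr1. Neutrophil markers went the other way: all 6 of S100a8, S100a9, Ltf, Ngp, Camp and Cebpe were lower in replicate 2, at 0.619 to 0.833 of replicate 1. Of the macrophage markers with enough counts, Cd68 (4.96), Cd163 (4.35), Csf1r (1.83) and Mrc1 (1.77) were higher in replicate 2, and Emr1, which encodes F4/80, was at 0.884 of replicate 1. Some of these differences ran with the replicate number in the control groups as well. In uninduced and IPTG-treated control cells, replicate 2 over replicate 1 was 0.599 and 0.736 for S100a8, 0.594 and 0.733 for Cebpe, 2.51 and 2.26 for Cd163 and 1.76 and 1.29 for Tlr2. Others did not: the ratio was 0.769 and 0.716 for Tlr4 and 0.562 and 0.824 for Cd68. The 6 macrophage markers summed to 1009 and 1532 CPM in HOXA9 OFF against 34.3 to 82.0 CPM in the other 6 libraries, where Mertk was at 0. The HOXA9 OFF sum was mostly Csf1r, Emr1 and Cd68. Cd163 was at 0.922 and 4.02 CPM there, against 3.07 and 7.70 CPM in uninduced cells. In CAF-1 OFF Csf1r was at 11.5 and 17.0 CPM, against 5.07 and 3.72 CPM in uninduced cells, whereas Emr1 overlapped between these groups. The 6 neutrophil markers summed to 7529 and 5146 CPM, against 77.3 to 129 CPM in uninduced, 82.5 to 112 CPM in IPTG-treated control and 327 to 502 CPM in CAF-1 OFF. Outside HOXA9 OFF the sum was mostly Cebpe, a transcription factor gene, at 277.1 and 423.2 CPM in CAF-1 OFF and 123.3 and 73.2 CPM in uninduced cells. In CAF-1 OFF 4 of the 6 were called higher than in uninduced cells: S100a8 (14.8-fold, edgeR adjusted p = 0.00224), S100a9 (23.9-fold, edgeR adjusted p = 0.00224), Ngp (4.62-fold, edgeR adjusted p = 0.00924) and Cebpe (3.56-fold, edgeR adjusted p = 0.0126). Camp (4.61-fold, edgeR adjusted p = 0.0513) and Ltf, with 9 and 10 counts against 7 and 10, were not. The calls of S100a8 and S100a9 held with any 1 library left out; without uninduced replicate 1 or 2, Ngp (edgeR adjusted p = 0.0544 and 0.0533) and Cebpe (0.0527 and 0.0634) lost theirs, Cebpe also without CAF-1 OFF replicate 2 (0.0968). The 6 dendritic cell markers summed to 6.46 and 27.6 CPM in HOXA9 OFF and at most 4.05 CPM elsewhere. Most of this sum was Itgax, at 5.32 and 22.6 CPM in HOXA9 OFF, and without HOXA9 OFF replicate 2 or uninduced replicate 2 its call against uninduced cells (6.49-fold with all libraries) was lost (log2 1.31 and 2.43 without these; edgeR adjusted p = 0.0561 and 0.0704). Ccr7 of the same list went the other way, with 0 and 2 counts in HOXA9 OFF against 15 and 41 in uninduced cells, a ratio of 0.0424 with a 95% counting interval of 0.00501 to 0.161 (edgeR adjusted p = 0.0114, and 0.0635 without uninduced replicate 2), and Cd209a had no count in any library. The 5 T cell markers summed to at most 0.893 CPM anywhere. The part of these cell types in the receptor changes was not tested.

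**Figure D4:**
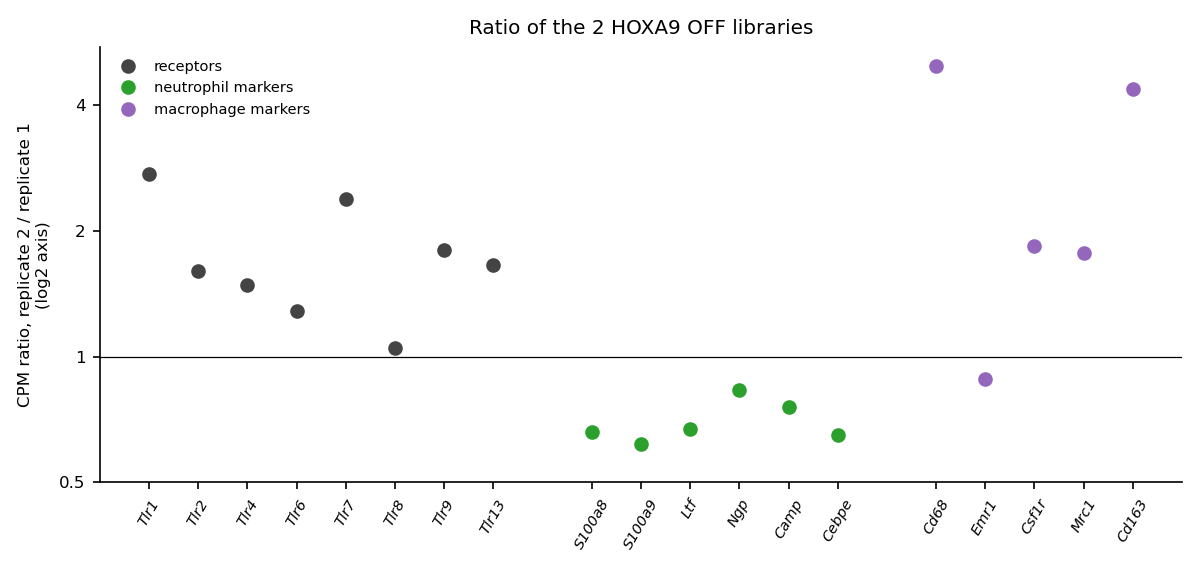
CPM in HOXA9 OFF replicate 2 divided by CPM in replicate 1 (log2 axis) for the Toll-like receptors (grey), neutrophil markers (green) and macrophage markers (purple). All 8 receptors lie above 1, all 6 neutrophil markers below 1, and the macrophage markers run from 0.884 to 4.96.

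The replicates of CAF-1 OFF differed as well. Replicate 2 was above replicate 1 by 1.68-fold for Tlr2, 1.31-fold for Tlr4, 1.35-fold for Tlr6, 2.26-fold for Tlr13, 2.43-fold for Tlr1 and 4.17-fold for Tlr9, the last from 5 and 21 counts. In the same library 5 of the 6 neutrophil markers were above replicate 1, from 0.592 for Ngp to 2.90 for Camp. Of the 5 macrophage markers with enough counts 4 were above it, from 0.963 for Cd163 to 2.27 for Mrc1. The 5 mast cell and basophil markers summed to 1043 and 656 CPM in CAF-1 OFF, against 140 to 221 CPM in the other libraries, and the 5 megakaryocyte markers to 192 and 216 CPM, against 23.5 to 29.4 CPM in the control groups and 127 and 123 CPM in HOXA9 OFF. Their part in the receptor values was not tested.

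The machinery around the receptors was followed in gene lists, to be read against the 25.2% of all tested genes called higher and 22.1% called lower in HOXA9 OFF, and the 10.5% and 3.5% in CAF-1 OFF. Of 6 co-receptors and ligand carriers, all 6 were higher in HOXA9 OFF and 2 in CAF-1 OFF against uninduced cells, with median log2 changes of 2.60 and 1.17. Cd14, which hands lipopolysaccharide to TLR4, was at 90.7 and 202.8 CPM in HOXA9 OFF and 20.9 and 32.7 CPM in CAF-1 OFF, against 11.8 and 5.99 CPM in uninduced cells. It rose 16.5-fold in HOXA9 OFF (log2 4.05, edgeR adjusted p = 0.000348; log2 3.35 without HOXA9 OFF replicate 2) and was not called in CAF-1 OFF (log2 1.59, SE 0.48, edgeR adjusted p = 0.0521). Ly96, which encodes the TLR4 partner MD-2, was at 4.67 and 7.94 CPM in HOXA9 OFF, against 1.07 and 1.24 CPM in uninduced cells (log2 2.44, SE 0.40, edgeR adjusted p = 0.00138). So the lipopolysaccharide receptor itself was not called in either condition, while its partners passed the test in HOXA9 OFF. Lbp, the lipopolysaccharide-binding protein, was called in both, at log2 2.75 in HOXA9 OFF and 1.56 in CAF-1 OFF. The other call in CAF-1 OFF was Cd36, a scavenger receptor named after its values were seen. It had 9 and 25 counts, or 0.474 and 1.31 CPM, in CAF-1 OFF and none in uninduced cells, and was at least 6.67-fold higher on average. Against the IPTG-treated control, with 0 and 1 counts, Cd36 was not called (log2 4.52, SE 1.58, edgeR adjusted p = 0.093), and Lbp was (log2 1.52, edgeR adjusted p = 0.0155). This Lbp call was lost without CAF-1 OFF replicate 2 or either IPTG-treated control library. In CAF-1 OFF against uninduced cells, neither call held without uninduced replicate 1 or 2 or CAF-1 OFF replicate 2: the adjusted p was then 0.0566, 0.0674 and 0.101 for Lbp and 0.159, 0.132 and 0.203 for Cd36. Cd36 was not called without CAF-1 OFF replicate 1 or IPTG-treated control replicate 1 or 2 either (edgeR adjusted p = 0.07, 0.0655 and 0.0671). In HOXA9 OFF, Cd36 had 4 and 35 counts and lost its call without HOXA9 OFF replicate 2 or uninduced replicate 1 or 2 (edgeR adjusted p = 0.0761, 0.0614 and 0.0616). Cd180, a TLR4-related receptor named after its values were seen, also lost its call without uninduced replicate 1 (log2 2.07 with all libraries and 1.81 without; edgeR adjusted p = 0.0649), so that 4 of the 6 remained there, and was at log2 1.12 and still called without HOXA9 OFF replicate 2.

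Of 9 genes for folding, trafficking and processing of the receptors, 7 were higher in HOXA9 OFF and none was called in CAF-1 OFF, with median log2 changes of 1.95 and 0.18. Unc93b1, the chaperone that takes endosomal receptors out of the endoplasmic reticulum, was at 1107 and 1141 CPM in HOXA9 OFF, against 234.7 and 179.6 CPM in uninduced cells (log2 2.44, SE 0.22, edgeR adjusted p = 6.85e-05). In CAF-1 OFF it stood at 188.8 and 279.9 CPM (log2 0.18, SE 0.21, edgeR adjusted p = 0.57). The endosomal protease genes Ctss, Ctsb and Lgmn had the largest changes in HOXA9 OFF, at log2 7.79, 3.67 and 3.40, and replicate 2 was far above replicate 1 for each. Ctss was at 150.1 and 451.6 CPM and Ctsb at 1228 and 4431 CPM, and without HOXA9 OFF replicate 2 they were at log2 6.79 and 2.47 and still called. Lgmn was at 18.1 and 306.1 CPM, against 6.99 and 23.7 CPM in uninduced cells, so the first library overlapped them. Its call rests on replicate 2, without which it was at log2 0.24 (edgeR adjusted p = 0.795), and it was not called without uninduced replicate 1 or 2 or without CAF-1 OFF replicate 1 or 2 either (edgeR adjusted p = 0.182, 0.0696, 0.06 and 0.0602). Of the 7 calls in this list, 4 remained without uninduced replicate 1, where Ctsl and Slc15a4, named after their values were seen, were lost too (edgeR adjusted p = 0.0698 and 0.0819). Slc15a4, at log2 0.59 with all libraries, was also lost without HOXA9 OFF replicate 2 (log2 0.35, edgeR adjusted p = 0.0644), and fell under 1.5-fold without CAF-1 OFF replicate 1 or either IPTG-treated control library. Without HOXA9 OFF replicate 2 Ctsl was at log2 1.08, from 1.95, and still called.

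Of 17 adaptors and proximal kinases, 10 were higher and 0 lower in HOXA9 OFF, and 2 higher and 1 lower in CAF-1 OFF. Their medians were 0.59 and 0.03. In HOXA9 OFF 58.8% of the list was higher, and in CAF-1 OFF 11.8% was higher and 5.88% lower, close to all tested genes and so no result about this list. Myd88, the adaptor used by all members but Tlr3, was at 100.6 and 107.7 CPM in HOXA9 OFF against 29.6 and 32.4 CPM in uninduced cells (log2 1.75, SE 0.17, edgeR adjusted p = 9.86e-05). CAF-1 OFF libraries had 34.4 and 38.5 CPM of it, and it was not called (edgeR adjusted p = 0.35). Ticam1, the adaptor of TLR3 and TLR4, rose in both against uninduced cells, by log2 1.38 in HOXA9 OFF (SE 0.14, edgeR adjusted p = 0.00011) and 0.74 in CAF-1 OFF (SE 0.14, edgeR adjusted p = 0.0126). In CAF-1 OFF the kinase gene Irak2 rose as well (log2 0.80) and Traf6, a ubiquitin ligase of the pathway, fell (log2 -0.67). Against the IPTG-treated control Irak2 alone was called (log2 0.77, edgeR adjusted p = 0.0174). That call was lost without CAF-1 OFF replicate 2 or either IPTG-treated control library, which leaves 1 library in that group. Ticam1 (log2 0.54, edgeR adjusted p = 0.0336) and Traf6 (log2 -0.53, edgeR adjusted p = 0.0216) changed less than 1.5-fold against this control. Against uninduced cells none of the 3 was called without uninduced replicate 1 or without CAF-1 OFF replicate 2, at adjusted p from 0.0514 for Traf6 to 0.109 for Irak2, and Traf6 was not called without uninduced replicate 2 either (edgeR adjusted p = 0.052).

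Of the negative regulators, 9 of 10 were tested. In HOXA9 OFF 5 were higher and 1 lower, and in CAF-1 OFF 3 were higher and 1 lower, with medians of 1.13 and 0.95. Dusp1 and Tnfaip3 (A20) rose by log2 3.40 and 2.89 in HOXA9 OFF (Dusp1 by log2 2.67 without HOXA9 OFF replicate 2), and Sigirr, which encodes an inhibitory TIR-domain receptor, fell by 2.49 on the log2 scale. The other calls in HOXA9 OFF, named after their values were seen, were Irak3, Nfkbia and Cyld. In CAF-1 OFF the calls were Irak3 (2.30-fold), Tnfaip3 (1.95-fold) and Nfkbia (1.93-fold), all higher, and Sigirr, which was lower and is named after its values were seen. Tnfaip3 was not called against the IPTG-treated control (edgeR adjusted p = 0.0651). None of these 4 was called in CAF-1 OFF without uninduced replicate 1 (edgeR adjusted p = 0.079 for Irak3 and Sigirr, 0.074 for Tnfaip3 and 0.0597 for Nfkbia), nor without uninduced replicate 2 or CAF-1 OFF replicate 2, at adjusted p from 0.0518 for Sigirr to 0.187 for Tnfaip3. Tnfaip3 was also not called without CAF-1 OFF replicate 1 or either IPTG-treated control library, at adjusted p from 0.0591 to 0.079.

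Of 9 transcription factors of the pathway, 7 were higher in HOXA9 OFF and 1 in CAF-1 OFF, with medians of 1.84 and 0.29. Irf7, which TLR7 and TLR9 use to induce interferon, was the call in CAF-1 OFF, at 7.53 and 8.05 CPM against 0.890 and 0.813 CPM in uninduced cells (log2 3.18, SE 0.30, edgeR adjusted p = 0.00224). Of the 13 pathway genes called in CAF-1 OFF it was the 1 whose call held whichever library was left out. In HOXA9 OFF it was at 35.2 and 59.5 CPM (log2 5.79), followed by Irf5 (2.91) and Rel (2.25).

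Of 13 target genes of receptor signalling, 9 were tested. In HOXA9 OFF 6 were higher and 1 lower, and in CAF-1 OFF 3 were higher, with medians of 3.65 and 0.83. Cxcl10, an interferon-induced chemokine, rose in both, by log2 4.22 in HOXA9 OFF and 3.37 in CAF-1 OFF. The latter was 2.54 without CAF-1 OFF replicate 2 (edgeR adjusted p = 0.0508), and the call was lost without uninduced replicate 1 or 2 as well (edgeR adjusted p = 0.0638 and 0.0564). The chemokine genes Ccl4 and Ccl3 rose by log2 4.93 and 3.65 in HOXA9 OFF, where Ccl4 was at 7.65 and 100.8 CPM and Ccl3 at 62.8 and 283.8 CPM. Without HOXA9 OFF replicate 2 the changes were log2 2.11 and 2.19 and both were still called, and without replicate 1 they were 5.83 and 4.37. Outside the rule for naming genes, and so named after their values were seen, were Cxcl2 and Il1b, higher in CAF-1 OFF, and Il6, lower in HOXA9 OFF (log2 -2.10, and -3.11 without HOXA9 OFF replicate 2; edgeR adjusted p = 0.0602 without uninduced replicate 1). Il1b was called against the IPTG-treated control too (edgeR adjusted p = 0.0337), and Cxcl2 was not (0.0859). The Il1b call against this control was lost without CAF-1 OFF replicate 2 or either IPTG-treated control library. In CAF-1 OFF, Il1b was not called without CAF-1 OFF replicate 2 or uninduced replicate 2 (edgeR adjusted p = 0.134 and 0.0518), and Cxcl2 was called only with the HOXA9 OFF libraries as the ones left out. Over the pathway lists, 1 to 13 of the 13 CAF-1 OFF calls and 36 to 42 of the 43 HOXA9 OFF calls remained with 1 library left out, fewest without CAF-1 OFF replicate 2 and without uninduced replicate 1. The labels name no added receptor ligand.

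**Figure D5:**
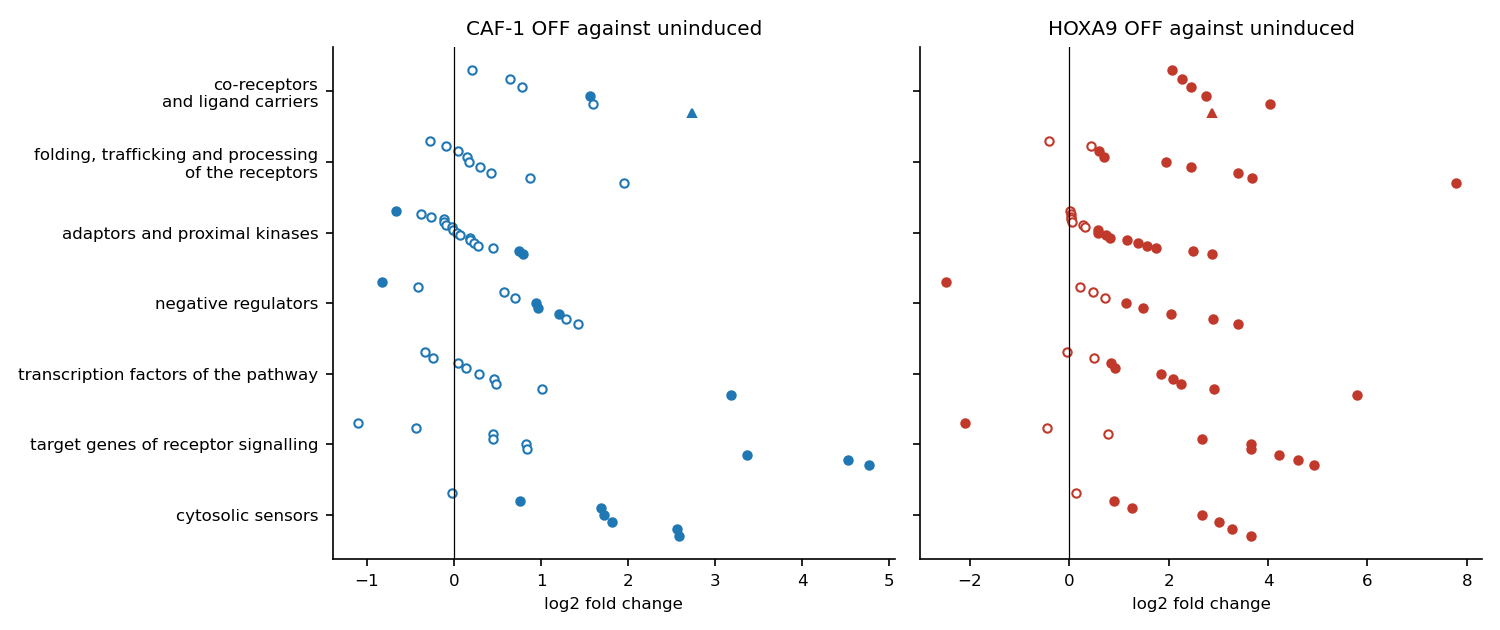
Log2 fold change against uninduced cells of each tested gene in 7 lists of Toll-like receptor pathway genes, in CAF-1 OFF (left) and HOXA9 OFF (right). Filled points were called, open points were not, and triangles are lower bounds for a gene with no count in uninduced cells; the horizontal axes differ, and all 6 co-receptors and carriers are filled in HOXA9 OFF against 2 in CAF-1 OFF.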

How the data were processed

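Total RNA from 8 cultures of iGMPs was sequenced with a directional NEBNext kit. The authors used STAR for alignment to mm9 and HTSeq for counting, by the labels and the methods of the study, and deposited 1 table of raw counts per library, neither normalised nor pooled. The annotation version and the strand setting are not given in the sources used here, so overlapping genes are uncertain. HTSeq's summary rows were kept apart; reads outside genes were 5.30% to 14.6% of the reads that were counted, ambiguous or outside genes, the highest share in IPTG-treated control replicate 1.

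Counts were fitted in edgeR 4.0.16 (R 4.3.3), with TMM scaling, edgeR's filter on low counts and 1 coefficient per group, and contrasts were read with the quasi-likelihood test and Benjamini-Hochberg adjustment over 13080 genes. The biological coefficient of variation was 18.9%. A call needed an adjusted p under 0.05 and 1.5-fold, the thresholds of the study. Totals of 14044284 to 22423837 counts put 3 counts, the detection floor per library, at 0.128 to 0.212 CPM. Intervals are exact and cover counting error only. An SE is the size of the log2 change divided by the square root of F in the quasi-likelihood test. It is not a value that edgeR reports. Levels per kilobase used the longest transcript of GENCODE vM1. Named genes outside the 10 members were at most 3 called genes per list and comparison, taken by size of change where mean log2 CPM reached 2, plus Cd14, Ly96, Unc93b1, Myd88, Ticam1, Tlr11 and Tlr12. The members and lists were chosen with earlier results of these data known, and the motifs after the promoters were seen. Alternatives were DESeq2 1.42.0, an exact test, glmTreat, other scalings, filters and thresholds, fewer groups, a replicate block and leaving out each library. Leaving out libraries for the pathway and marker genes, and the filter without the HOXA9 OFF libraries, were chosen after seeing the data.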

Additional observations from a re-analysis of the deposited data

How the results depend on the processing

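No call of a receptor in HOXA9 OFF, against uninduced cells or CAF-1 OFF, changed under any alternative, including the IPTG-treated control as its reference, an alternative chosen after seeing the data. Over the single receptors and all comparisons, 728 values kept their status, called or not called in both. Of the others, 13 gained a call, 17 lost one and none reversed. The changes all concerned CAF-1 OFF and Tlr1, Tlr2, Tlr6 or Tlr13. Against uninduced cells the CAF-1 OFF calls ranged from 0 to 4 with 1 library left out, and against the IPTG-treated control from 0 to 3; the latter were 0 at an adjusted p of 0.01 and 2-fold. Tlr2 against uninduced cells was not called by glmTreat (adjusted p = 0.153). Tlr1 against uninduced cells was called by DESeq2 (0.015), edgeR's exact test (0.0125) and without the filter (0.0261), and Tlr2 against the control by DESeq2 (0.00184), the exact test (0.00695), without the filter (0.0167) and from the compared groups alone (0.0247). The surface share became 98.5% in uninduced and 99.1% in control cells by exon union length, 64.9% in HOXA9 OFF from raw counts, and 92.8%, 97.2% and 72.5% in these 3 groups without Tlr4 and Tlr13, the most abundant member of each class over all libraries. The cause of the other changes was not tested.

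Whether a replicate number marks a sub-clone is not given. Their deviations from group means correlated at 0.475 between uninduced and IPTG-treated control, 0.301 and 0.316 between these and HOXA9 OFF, and -0.0443, -0.0173 and 0.0756 between CAF-1 OFF and the 3 others. With the replicate block, 4 receptors were called in CAF-1 OFF against uninduced cells (Tlr1 added, adjusted p = 0.0323) and 3 against the control (Tlr2 added, 0.00291); the counts in the other comparisons were 7, 0 and 7, as without it. Over all genes, DESeq2 called 5 genes between the control groups. Depth limited Tlr3, Tlr5 and the control levels of Tlr1, Tlr7, Tlr8 and Tlr13, which rest on 5 counts or fewer per group.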

Other observations

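Tlr11 and Tlr12, receptors for the protozoan protein profilin, are further mouse Toll-like receptors outside the 10. Tlr11 had 1 count in all 8 libraries together. Tlr12 moved in opposite directions: CAF-1 OFF libraries held 21.6 and 20.9 CPM and HOXA9 OFF libraries 1.68 and 1.34 CPM, against 4.27 and 3.38 CPM in uninduced and 3.39 and 2.64 CPM in IPTG-treated control cells. It rose 5.55-fold in CAF-1 OFF (log2 2.47, SE 0.24, edgeR adjusted p = 0.00245) and fell by 1.34 on the log2 scale in HOXA9 OFF (SE 0.25, edgeR adjusted p = 0.00278). The direct difference between these groups was 3.81 on the log2 scale (SE 0.26, edgeR adjusted p = 4.62e-05). None of the 8 tested members was called higher in CAF-1 OFF than in HOXA9 OFF.

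A further list held 7 genes for cytosolic sensors of microbial RNA and peptidoglycan and for their signalling partners. Against the same uninduced libraries, 6 were called higher in CAF-1 OFF and 6 in HOXA9 OFF, where 10.5% and 25.2% of all tested genes were higher, with median log2 changes of 1.72 and 2.68. The adaptor gene Mavs was called in neither (log2 -0.02 and 0.14). Ddx58, which encodes RIG-I, was at log2 2.56 in CAF-1 OFF and 3.65 in HOXA9 OFF, and Dhx58 at 1.82 and 2.68. Ifih1, which encodes MDA5, was at log2 2.59 in CAF-1 OFF and 1.26 in HOXA9 OFF. In the direct comparison Ifih1 was higher in CAF-1 OFF (log2 1.33, SE 0.31, edgeR adjusted p = 0.00844; 0.0592 without CAF-1 OFF replicate 2). None of the 6 calls in CAF-1 OFF held without uninduced replicate 1, 4 held without uninduced replicate 2 and 3 without CAF-1 OFF replicate 2, whereas 5 or 6 of those in HOXA9 OFF held with any 1 library left out; there Ifih1 lost its call without uninduced replicate 1 or 2 (edgeR adjusted p = 0.0608 and 0.0547).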
